A study of Homo sapiens with 3 samples.

Results

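The FAT protocadherins, the Dachsous cadherin DCHS1, the cadherins CDH1, CDH3 and CDH17 and the catenins CTNNA1 and CTNND1 were described in HCT-116 cells, a human colon carcinoma line. The rows of the 10 genes were taken by gene symbol alone, and each gene had 1 row among the 23131 genes of the deposited table. Both libraries analysed came from cells that carry wild-type *APC* and a *CTNNB1* allele lacking serine 45 (ΔSer45), which makes β-catenin resistant to degradation. One library was from cells transfected with pooled anti-*APC* siRNA on 2 consecutive days and harvested 48 hours after the second transfection. The other was from control cells, which the labels call untransfected in one field and mock-transfected with reagent only in another. They are called untransfected here. With 1 library per condition there was no replicate spread and no test. Because the control cells received no siRNA, silencing of *APC* cannot be told apart from delivery of an siRNA in this comparison. Another library of the series, from cells given scrambled siRNA, was not analysed here.

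Classical cadherins are single-pass adhesion receptors that bind the same cadherin on a neighbouring cell. Their cytoplasmic tails bind β-catenin and p120-catenin, and β-catenin in turn recruits α-catenin, which links the complex to actin. The β-catenin held at junctions and the β-catenin that acts with TCF factors in the nucleus are drawn from the same protein. FAT and Dachsous proteins are giant atypical cadherins; FAT4 binds DCHS1 across cell borders in planar polarity signaling. CDH17, or liver-intestine cadherin, lacks the β-catenin-binding tail and is a known marker of intestinal epithelium.

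The values were FPKM, fragments scaled to transcript length and to the mapped reads of a library, so levels of different genes can be compared. The file gave no read counts, but FPKM of low genes fall on steps of whole reads. The commonest log2 ratio among 3408 genes under 0.5 FPKM, shared within 0.002 by 387 of them, was 0.13, the ratio that equal read numbers give. Together with transcript lengths, these steps placed the libraries near 23620000 reads (anti-*APC* siRNA) and 25870000 reads (untransfected). Read numbers below are estimates from these depths and depend on the transcript length used, and every 95% interval (exact binomial for ratios, exact Poisson for levels) covers counting error only. *APC* had 3.43 FPKM in the anti-*APC* library and 9.15 FPKM in the untransfected one, so its level with siRNA was 37.5% of that without. The level of *CTNNB1*, the β-catenin gene, was 178 FPKM after anti-*APC* siRNA against 177 FPKM in its absence. Of 8 markers of colon epithelium and carcinoma, 6 were at a mean of 1 FPKM or more, with *KRT8*, *KRT18*, *KRT19* and *EPCAM* the highest. The 2 exceptions were *CDH17* and *VIL1*, the latter listed at 0 without siRNA and at 0.0313 FPKM with it. The summed level of this list was 1294 FPKM in the anti-*APC* library and 1650 FPKM in the untransfected one, and *CDH1* and *CDH17* are in it. The 9 fibroblast and mesenchymal markers summed to 5.35 FPKM with and 4.25 FPKM without, mostly *COL1A1* and *VIM*. N-cadherin, *CDH2*, was at 0.0476 FPKM with and 0.0174 FPKM without, and *CDH11* was listed at 0 in both libraries. The 3 endothelial markers summed to 0.0415 FPKM with and 0.0725 FPKM without. The 3 leukocyte markers summed to 5.02 FPKM with and 8.95 FPKM without, nearly all of it *CD68*, with *PTPRC* at 0.00812 and 0.0148 FPKM and *CD3E* listed at 0 with siRNA. The part of these differences in the results below was not tested.

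The sequences just upstream of the start sites are shown first. *FAT1*, the most abundant FAT gene, and *FAT2*, one of the least abundant, were the only FAT genes with such a sequence at hand. Whether the letters relate to the levels was not tested. RefSeq windows on GRCh38.p14 were matched by symbol for 3 of the 10 genes, *FAT1*, *FAT2* and *CTNNA1*. Each stretch is the 250 bases before an annotated start, written 5′ to 3′ on the gene's strand. Capitals mark GC boxes, GGGCGG or its reverse complement CCGCCC, the letters bound by SP1-type factors. The *FAT1* stretches lie at chr4:186726697-186726946 and, from a start 2840 bases further downstream, at chr4:186723857-186724106, both on the minus strand. The *FAT2* stretch lies at chr5:151591332-151591581 on the minus strand, and that of *CTNNA1* at chr5:138753175-138753424 on the plus strand.
FAT1 upstream start: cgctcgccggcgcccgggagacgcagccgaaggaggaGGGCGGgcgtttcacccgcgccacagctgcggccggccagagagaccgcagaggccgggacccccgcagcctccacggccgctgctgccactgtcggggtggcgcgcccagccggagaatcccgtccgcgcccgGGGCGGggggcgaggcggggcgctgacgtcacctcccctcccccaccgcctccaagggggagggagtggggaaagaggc
FAT1 downstream start: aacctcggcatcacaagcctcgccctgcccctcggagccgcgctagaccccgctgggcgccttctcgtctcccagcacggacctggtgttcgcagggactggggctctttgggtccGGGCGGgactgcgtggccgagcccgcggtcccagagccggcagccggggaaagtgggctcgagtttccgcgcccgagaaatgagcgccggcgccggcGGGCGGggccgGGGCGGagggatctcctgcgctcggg
FAT2: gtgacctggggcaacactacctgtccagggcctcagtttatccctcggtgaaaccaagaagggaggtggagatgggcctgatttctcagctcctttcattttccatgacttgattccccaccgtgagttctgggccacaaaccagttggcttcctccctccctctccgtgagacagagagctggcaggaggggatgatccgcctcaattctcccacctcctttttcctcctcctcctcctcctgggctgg
CTNNA1 first start: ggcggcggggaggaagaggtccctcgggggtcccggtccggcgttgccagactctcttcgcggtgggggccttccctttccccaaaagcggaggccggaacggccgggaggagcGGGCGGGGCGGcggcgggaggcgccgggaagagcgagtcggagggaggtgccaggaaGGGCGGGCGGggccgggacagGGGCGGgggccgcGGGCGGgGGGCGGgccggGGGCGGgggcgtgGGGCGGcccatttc
The *FAT1* stretches were 78.0% and 74.0% G or C, each with 32 CpG dinucleotides, against a median of 58.0% and 11 CpG over all 35116 windows of this length. They held 2 and 3 GC boxes, where 42.6% of all windows held at least 1. The *FAT2* stretch was 56.8% G or C with 4 CpG and no GC box. The *CTNNA1* stretch was 80.0% G or C with 33 CpG and 9 GC boxes, some of which overlap each other. The TCF word was searched on both strands in 4 forms, with AACAAAG and its relative ATCAAAG beside a form TACAAAG and a last form TTCAAAG, and 12.0% of all windows held one. The AP-1 word TGACTCA, whose reverse complement is TGAGTCA, was in 4.2% of them and the E-box CAGGTG in 17.5%. None of the 4 stretches shown held any of these words. Of the 3 *CTNNA1* windows not shown, 2 overlap each other and share 1 TCF word, which lies in the stretch common to both. These 2 were 40.8% and 46.4% G or C, with 3 and 8 CpG and no GC box. The remaining *CTNNA1* window was 80.4% G or C, with 39 CpG and 4 GC boxes. A missing word says only that these letters are not in this window, and a match is a description of the letters.

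Levels of the members spanned from over 100 FPKM to 1 read, in the same order in both libraries. The order from the top was *FAT1*, *CTNNA1*, *CDH3*, *CDH1*, *FAT4*, *DCHS1*, *CDH17*, *FAT2* and *FAT3*. *CTNND1* had no usable value. *FAT1* was 15.4 times as abundant as *CDH1* with anti-*APC* siRNA and 7.72 times without. The counting intervals of neighbours in this order overlapped for *DCHS1* and *CDH17* and for *CDH17* and *FAT2* in both libraries, and for *FAT4* and *DCHS1* in the untransfected library. The difference between neighbours was not tested. *FAT2* and *FAT3* were apart in both libraries, and so were all neighbours above *FAT4*.

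**Figure D1:**
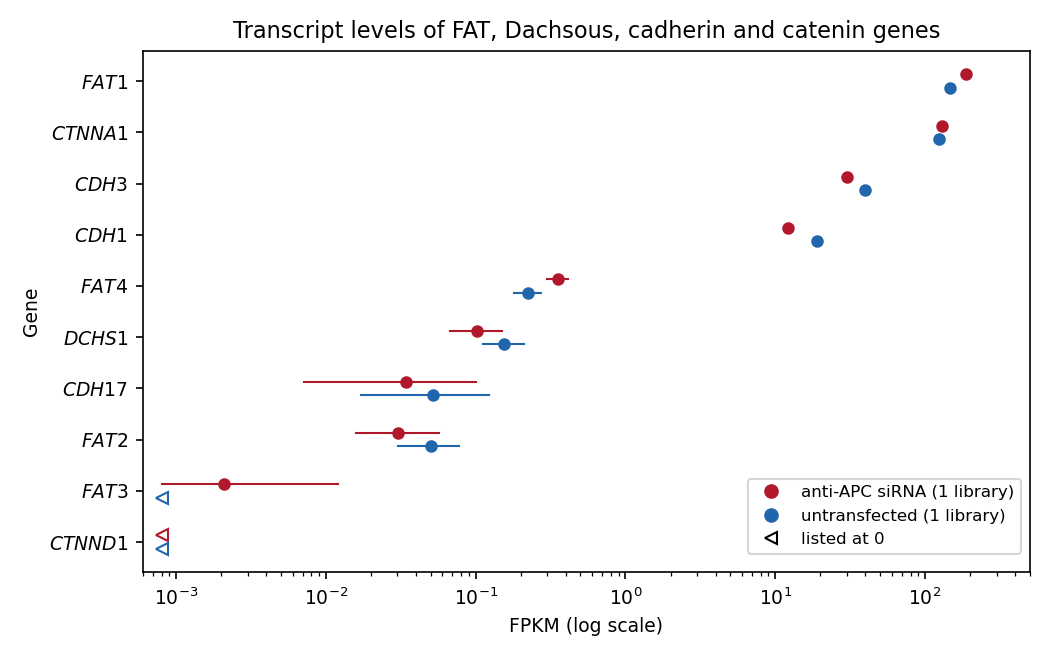
Transcript level (FPKM, log axis) of the 10 genes in the anti-*APC* siRNA and the untransfected library, 1 point per library, with lines for 95% Poisson intervals of the estimated reads. Open triangles mark values listed at 0, and the lower end of the *FAT3* interval is cut at the axis. Only *FAT1*, *CTNNA1*, *CDH3* and *CDH1* lie above 1 FPKM.

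Against this spread of levels the differences between the libraries were small. Of the 10 genes, 4 had a mean of at least 1 FPKM over both libraries. Among these 4, *CDH1* was the one that differed by 1.5-fold or more, and it was lower with anti-*APC* siRNA. In the whole table, 9.17% of the 12063 genes at this level differed by 1.5-fold or more, 6.61% downward and 2.56% upward. With 4 genes, 1 call gives no share that can be set against it. The median log2 ratio of the 4 genes was -0.16, and that of the 12063 genes was -0.05 with quartiles of -0.24 and 0.11. Of the 12063 ratios, 58.6% were below 0. Of the 6 other genes, 4 were above 0 in both libraries at under 1 FPKM, 1 was listed at 0 in 1 library and 1 at 0 in both.

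**Figure D2:**
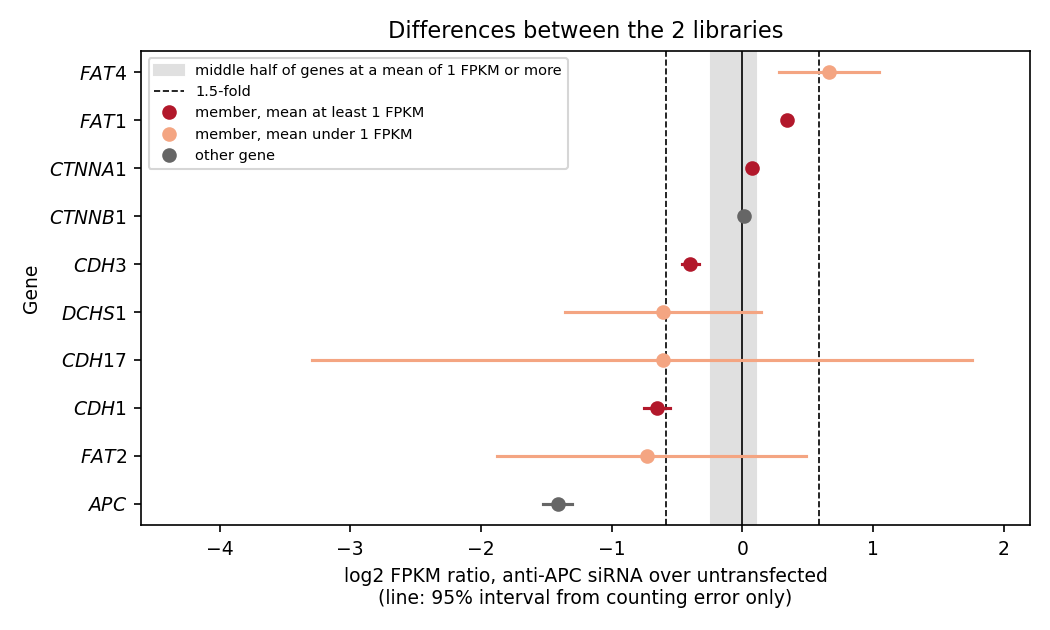
The log2 ratio of FPKM, anti-*APC* siRNA over untransfected, for the 8 members above 0 in both libraries and for *APC* and *CTNNB1*, with lines for 95% counting intervals. The grey band runs between the quartiles of all genes at 1 FPKM or more, and dashed lines mark 1.5-fold. The intervals of *DCHS1*, *CDH17*, *FAT2* and *CTNNB1* cross 0.

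*CDH1*, encoding E-cadherin, the main epithelial classical cadherin, had 12.1 FPKM in the anti-*APC* library and 19.0 FPKM in the untransfected one. The level with anti-*APC* siRNA was thus 63.6% of the untransfected level, or 1.57-fold lower. On the log2 scale the difference was -0.65 (95% interval -0.75 to -0.56), from about 1374 and 2366 reads. The 1.5-fold mark, 0.585 below 0 on this scale, lies within the interval. Of the 6123 genes between 10 and 100 FPKM, 3.02% were lower by 1.5-fold or more.

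*CDH3*, encoding P-cadherin, a classical cadherin that also binds β-catenin, had 30.2 FPKM in the anti-*APC* library and 39.7 FPKM in the untransfected one. Its log2 difference was -0.40 (95% interval -0.46 to -0.33), from about 3170 and 4573 reads. Both classical cadherins were therefore lower, and their counting intervals for the difference did not overlap. P-cadherin transcript exceeded E-cadherin transcript in either library, by 2.49 times with and 2.09 times without anti-*APC* siRNA. Their sum was 42.3 FPKM with and 58.7 FPKM without, a log2 difference of -0.47, and *CDH1* made up 28.6% and 32.4% of it. The genes are neighbours on chromosome 16 of GRCh37 in the same orientation. *CDH3* spans 68670092 to 68761371 and *CDH1* spans 68771195 to 68869440, so 9.82 kb separate them. In the deposited table each had a locus of its own.

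*CDH17* had 0.0340 FPKM in the anti-*APC* library and 0.0518 FPKM in the untransfected one, or about 3 and 5 reads. Its log2 difference of -0.61 had a 95% interval of -3.29 to 1.76, so no difference was detectable at this depth. The gene lies on chromosome 8 of GRCh37 from 95139390 to 95229531. The keratins and *EPCAM* were by contrast abundant, with *EPCAM* at 170 FPKM in the anti-*APC* library and 190 FPKM in the untransfected one.

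*FAT1*, a giant atypical cadherin of epithelia, was the most abundant member, with 187 FPKM in the anti-*APC* library and 147 FPKM in the untransfected one. It ranked 502 and 654 of the 23131 genes in these libraries. The level was 1.27-fold higher with anti-*APC* siRNA, a log2 difference of 0.35 (95% interval 0.33 to 0.36). About 65095 and 56111 reads stood behind this, so its counting interval was the narrowest of the members. Counting error says nothing of the spread between cultures, which 1 library per condition does not show. Among the 995 genes at 100 FPKM or more, 8.34% were higher by at least 0.32 on the log2 scale. *FAT1* spans 187508948 to 187647876 on the minus strand of chromosome 4 of GRCh37, and its reference transcript has 27 exons and 14776 bases.

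*FAT4*, the FAT paralog that pairs with DCHS1, had 0.354 FPKM in the anti-*APC* library and 0.223 FPKM in the untransfected one. The log2 difference was 0.67 (95% interval 0.28 to 1.05), from about 143 and 99 reads. *DCHS1*, its ligand, had 0.101 FPKM with and 0.154 FPKM without, a log2 difference of -0.61 (95% interval -1.36 to 0.14) from about 26 and 43 reads. *FAT4* was thus higher and *DCHS1* lower in the anti-*APC* library, and the interval of *DCHS1* includes 0. *FAT4* spans 126236073 to 126414087 on the plus strand of chromosome 4 and *DCHS1* spans 6642561 to 6677040 on the minus strand of chromosome 11, both on GRCh37. *FAT2*, a FAT protein of stratified epithelia, had 0.0304 FPKM with and 0.0505 FPKM without, a log2 difference of -0.73 (95% interval -1.88 to 0.49) from about 11 and 19 reads. *FAT3* had 0.00210 FPKM with anti-*APC* siRNA, the value of 1 read over its 19504-base transcript. It was listed at 0 without siRNA, where 3 reads would give 0.00595 FPKM. On GRCh37 *FAT2* spans 150883653 to 150970892 on the minus strand of chromosome 5, and *FAT3* spans 91957984 to 92629639 on the plus strand of chromosome 11. Of the 4 members above 0 at under 1 FPKM, 3 were lower and 1 higher by 1.5-fold or more. Among all 4226 genes at such levels 48.7% passed that fold in one direction or the other, so folds of this size were common at such levels. *FAT1* held 99.8% of the summed FPKM of the 4 FAT genes in each library.

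**Figure D3:**
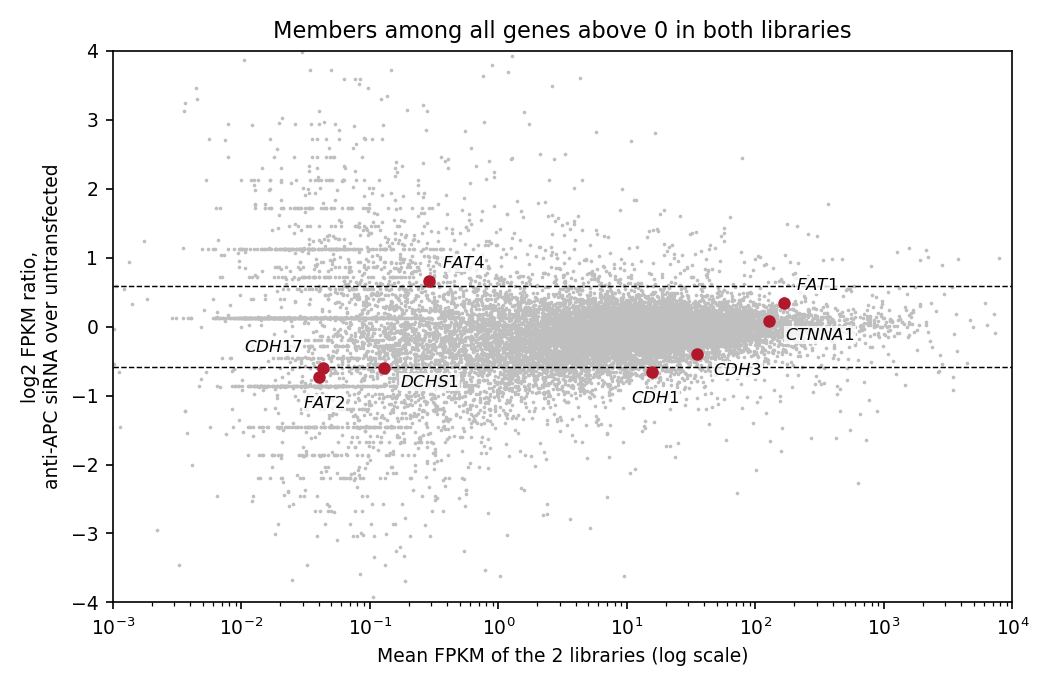
The log2 ratio of FPKM, anti-*APC* siRNA over untransfected, against the mean FPKM of both libraries (log axis) for all genes above 0 in both, in grey, with the 8 such members in red. The axes leave out 33 of 16289 genes. Ratios spread widely below 1 FPKM, where *FAT2*, *FAT4*, *DCHS1* and *CDH17* lie, and the horizontal stripes are ratios of small whole read numbers.

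*CTNNA1*, encoding αE-catenin, the actin link of the cadherin complex, had 130 FPKM in the anti-*APC* library and 123 FPKM in the untransfected one. Its log2 difference was 0.07 (95% interval 0.04 to 0.11), between the quartiles of all genes. The difference for *CTNNB1* was 0.01 (95% interval -0.02 to 0.04). The level of *CTNNA1* was 0.730 of that of *CTNNB1* with and 0.698 without anti-*APC* siRNA. Relative to *CDH1* both catenins were higher with anti-*APC* siRNA. The *CTNNB1* level was 14.7 times that of *CDH1* with and 9.30 times without, and the *CTNNA1* level was 10.8 and 6.49 times. These ratios leave out *CDH3*, which was more abundant than *CDH1*. The sum of *CDH1* and *CDH3* differed by -0.47 on the log2 scale, against -0.65 for *CDH1* alone. *CTNNA1* spans 137946656 to 138270723 on the plus strand of chromosome 5 of GRCh37. It shared its locus with *LRRTM2*, a neuronal gene nested within it, which had 0.0570 FPKM with and 0.0387 FPKM without.

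*CTNND1*, encoding p120-catenin, which stabilizes cadherins at the membrane, was listed at 0 in both libraries. The deposited table marks its row as failed, and all 269 rows marked so were at 0 in both libraries. Its locus was shared with *TMX2*, *BTBD18*, *C11orf31* and the read-through *TMX2-CTNND1*, and all 5 genes failed. The 0 is thus a missing estimate and not a level, and nothing can be said here on p120-catenin. *CTNND1* spans 57520715 to 57587018 on chromosome 11 of GRCh37.

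A desmosomal cadherin, *DSG2*, had the highest level in the rest of the cadherin superfamily. Of 52 other genes of the superfamily, 10 had a mean of at least 1 FPKM, and 0 of these differed by 1.5-fold or more, against 9.17% of all genes at this level. With 10 genes, a count of 0 is near that share. Their median log2 ratio was -0.09, with 4 ratios above and 6 below 0. *DSG2* had 97.7 FPKM in the anti-*APC* library and 90.9 FPKM in the untransfected one. *DSC2*, its desmocollin partner, had 23.3 FPKM with and 18.8 FPKM without. *DSC3*, another desmocollin, had 8.15 FPKM with and 5.81 FPKM without, the largest positive log2 ratio of the list at 0.49. All 3 desmosomal cadherins at this level were thus above their untransfected value, with a sum of 129 FPKM with and 115.5 FPKM without (log2 difference 0.16), whereas the sum of *CDH1* and *CDH3* was lower. The division into these sums was made after the values were seen. *CLSTN1*, a calsyntenin whose locus in the table held 3 genes, had 38.5 FPKM with and 43.1 FPKM without. The planar polarity cadherins *CELSR1* and *CELSR2* had 4.24 and 3.85 FPKM with anti-*APC* siRNA and 5.90 and 4.68 FPKM without. *CELSR1* had the lowest log2 ratio of the list at -0.47.

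Among 32 catenins, plakophilins, nectins and junction adaptors, 26 had a mean of at least 1 FPKM, with 13 ratios above and 13 below 0 and a median of -0.03. By 1.5-fold or more 3 were lower and 1 was higher, 15.4% of the 26 against the 9.17% of all genes. *ARVCF*, a p120-family catenin that binds the same cadherin site, had 1.55 FPKM in the anti-*APC* library and 4.42 FPKM in the untransfected one (log2 difference -1.51). Its locus in the table was shared with other genes, among them *TXNRD2*, at 2.61 FPKM with and 7.02 FPKM without anti-*APC* siRNA. The microRNA gene *MIR4761*, also at that locus, was listed at 85.0 FPKM without and at 0 with siRNA. How reads were divided among them was not tested. *PKP3*, a desmosomal plakophilin, had 16.6 FPKM with and 25.9 FPKM without (log2 difference -0.64). *PLEKHA7*, which binds p120-catenin at the zonula adherens, had 0.801 FPKM with and 1.27 FPKM without (log2 difference -0.66, about 105 and 181 reads). The most abundant adaptors differed less. *ACTN4*, an α-actinin whose locus held 2 genes, had 222 FPKM with and 190 FPKM without, and *CTNNAL1*, an α-catenin-like gene, had 141 FPKM with and 108 FPKM without. *JUP*, or plakoglobin, the close relative of β-catenin, had 53.3 FPKM with and 61.3 FPKM without.

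Of 20 genes that cleave, sort or degrade cadherins, 19 had a mean of at least 1 FPKM. Of these, 16 ratios were below and 3 above 0, where 58.6% of all genes at this level were below 0. Their median was -0.21, and 2 were lower by 1.5-fold or more (10.5%, against 9.17% of all genes). *KLK6*, a secreted kallikrein protease, had 10.3 FPKM in the anti-*APC* library and 20.7 FPKM in the untransfected one (log2 difference -1.01). *PIP5K1C*, a lipid kinase in E-cadherin trafficking, had 5.03 FPKM with and 7.91 FPKM without (log2 difference -0.65). *ADAM10*, a sheddase of E-cadherin whose locus held 2 genes, had 43.7 FPKM with and 38.6 FPKM without. The 3 most abundant were *APH1A* and *PSENEN*, subunits of γ-secretase, and the recycling GTPase *RAB11A*. *APH1A* had 54.6 FPKM with and 58.8 FPKM without, *PSENEN* 50.0 FPKM with and 56.8 FPKM without, and *RAB11A* 52.4 FPKM with and 48.3 FPKM without.

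**Figure D4:**
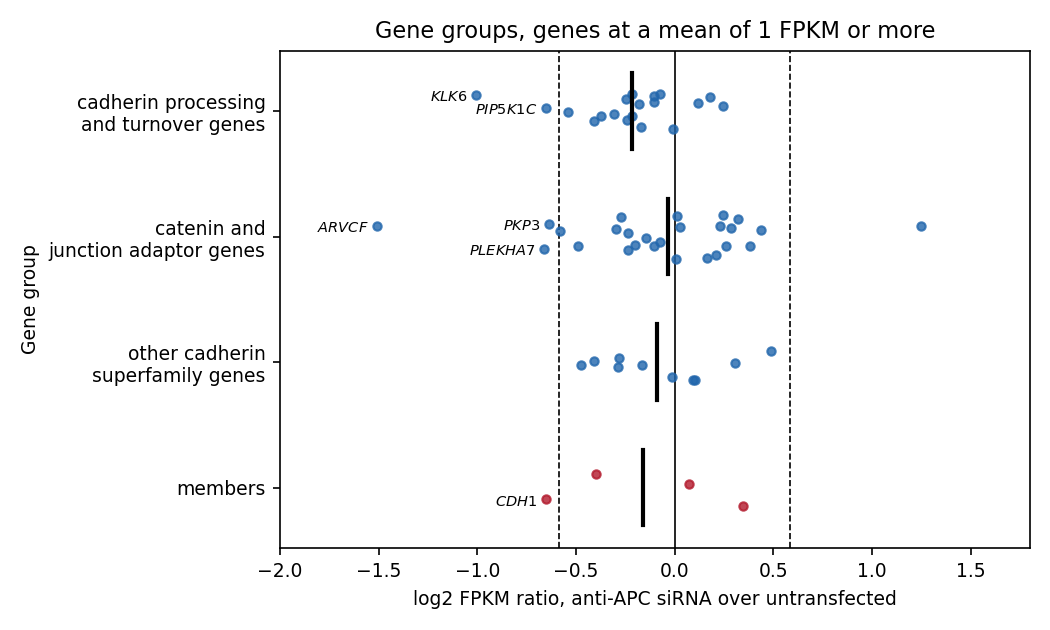
The log2 ratio of FPKM, anti-*APC* siRNA over untransfected, for each gene at a mean of 1 FPKM or more in the members and the 3 related gene groups; the thick bar is the median of the group and the vertical position within a group has no meaning. Dashed lines mark 1.5-fold, and the 6 genes lower by that fold or more are named.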

How the data were processed

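Single-read mRNA libraries of HCT-116 cells were compared, 1 per condition. The authors assigned reads with Cufflinks and compared the libraries with Cuffdiff, and the submitters' processing notes name hg19. Aligner, versions and annotation are not given in the sources used here. The deposited values are FPKM, scaled by the authors. The paper names a Genome Analyzer II and the labels a HiSeq. Columns with the authors' fold changes, test statistics, p and q were not used; the status column was. The log2 ratio was taken without a pseudocount for genes above 0 in both libraries, and called past a fold of 1.5 at a mean of at least 1 FPKM. Named genes were the 10 members, *APC*, *CTNNB1*, genes at the members' loci, and from each related list the 3 most abundant and all past 1.5-fold, of which 1 is not reported here; *DSC3*, *JUP*, *ADAM10*, *CELSR1*, *CELSR2*, *TXNRD2*, *MIR4761* and *VIL1* and other markers picked out singly were named after values were seen. The members and lists were chosen with earlier results of these data known. Gene positions and transcript lengths came from GENCODE 44 on GRCh37, upstream sequences from RefSeq on GRCh38.p14. Depth was estimated from genes with a MANE transcript of at least 2000 bases that were read in 1 library alone (86 and 96 genes in the fullest window of 0.15 log2 units). Alternatives were other folds, level minimums, pseudocounts, median centring and loci held by 1 gene. The calculations were tested on simulated data. Python 3.11.15, numpy 2.4.6, pandas 2.3.3, scipy 1.17.1 and matplotlib 3.10.9 were used.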

Additional observations from a re-analysis of the deposited data

How the results depend on the processing

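Pseudocounts of 0.1 or 1 FPKM cannot turn the sign of a ratio. Median centring raised every log2 ratio by the same amount, so ratios between -0.05 and 0 turned positive. Counts of ratios above and below 0 therefore depend on centring. Among the members it left 3 higher and 5 lower. A threshold of 0.32 on the log2 scale gave 3 of 4 members past it, with 3 of 10 other cadherin genes. It gave 9 of 26 catenin and adaptor genes and 5 of 19 processing genes. A fold of 2 gave 0, 0, 2 and 1. Without a level minimum there were 5 of 8 members and 10 of 29 other cadherin genes past 1.5-fold. With a mean of at least 0.1 FPKM there were 3 and 3, and with at least 5 FPKM 1 catenin or adaptor gene. The share of all genes was not computed at these settings, so the counts have no background beside them. Among all genes above 0 in both libraries at under 1 FPKM, 48.7% passed 1.5-fold. With a pseudocount of 1 FPKM, 3 catenin and adaptor genes and 1 processing gene were past 1.5-fold. At loci held by 1 gene, 3 catenin and adaptor genes were. Without a level minimum, or with a mean of at least 0.1 FPKM, 5 genes of that list were. Of 30 single-gene values, 25 stayed within their counting interval; on the scale of FPKM plus 1 *FAT4* was at 0.15 and *APC* at -1.19, and after centring *FAT1* was at 0.40, *CTNNA1* at 0.13 and *CTNNB1* at 0.06. No paired analysis was possible because each condition had 1 library, and for the same reason no library could be left out. The comparison with scrambled siRNA was not run. Low read numbers limit *FAT2*, *FAT3*, *CDH17* and *DCHS1*, and a failed estimate *CTNND1*.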
